A study of Danio rerio with 11 samples.

Results

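The comparison described here is that of RNA co-purified with tagged eIF4E1c against the total RNA of the same kind of lysate, in 8-cell zebrafish (Danio rerio) embryos. Its members were chosen by label and not by any measured value. They are the 2 libraries labelled eIF4E1c RIP and the 3 labelled eIF4E1c input, 5 of the 11 libraries of the series, and all 32520 genes in the count tables. RIP stands for RNA immunoprecipitation. Embryos carried the transgene tg(actb2:3xflag-sfGFP-eIF4E1c), in which the promoter of the broadly expressed beta-actin gene actb2 drives eIF4E1c fused to 3 copies of the FLAG peptide and to a green fluorescent protein. A cleared lysate was incubated with beads carrying an antibody to that fluorescent protein, and a portion of the lysate was kept as input. The other 6 libraries are 3 eIF4E1b RIP and 3 eIF4E1b input libraries from embryos with tg(actb2:3xflag-sfGFP-eIF4E1b), and they serve here only to show where the eIF4E1c values differ. Embryos of both lines retained their own eIF4E genes. A RIP with untagged embryos was not analysed here. RIP libraries were prepared with a kit for very small RNA amounts (SMARTer Ultra Low RNA) and input libraries with a stranded kit that depletes ribosomal RNA (SMARTer Stranded RNA, Ribo-Zero). Within eIF4E1c, what the beads retained and what the kits captured cannot be told apart. A kit effect that is the same for both proteins cancels in the ratio test, which compares the eIF4E1c RIP to input ratio with the eIF4E1b RIP to input ratio. The labels call the libraries biological replicates, and the number of embryos or clutches behind each is not given in the sources used here, so p-values measure the spread between these libraries.

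eIF4E proteins bind the methylated guanosine cap at the 5′ end of mRNA, and canonical eIF4E joins the scaffold eIF4G there to recruit the small ribosomal subunit. eIF4E1b and eIF4E1c are class I members of the family, and eIF4E1c is found in fish. An egg is loaded with maternal mRNA, and at the 8-cell stage the embryo still lives on that supply, before its own genome is switched on. Transcripts made by mitochondria carry no such cap. Neither does the 7SL RNA of the signal recognition particle, which is made by RNA polymerase III. Replication-dependent histone mRNAs have a cap and end in a stem-loop in place of a poly(A) tail, although egg forms can differ.

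Total counts were 6943631 and 10734469 in eIF4E1c RIP, against 8609302, 12709188 and 12069526 in eIF4E1c input. RIP 1 stood apart. It had counts for 15114 genes, against 17520 in RIP 2 and 18674 to 19120 in the inputs, and its 10 most abundant genes took 14.1% of all counts, against 5.71% in RIP 2 and 2.39 to 2.63% in the inputs. Between the RIP libraries the correlation of log2(normalized count + 1) across the tested genes was 0.84, against 0.96 to 0.98 between inputs and 0.71 to 0.76 between a RIP and an input library (Pearson r, a description across genes, which are not independent replicates). Pairs of libraries within a group differed far beyond sampling noise, with a chi-square of 12.1 to 139 per degree of freedom. A count of 0 allowed a level of up to 0.432 CPM (counts scaled to a fixed library total) in RIP 1 and 0.236 to 0.348 in the other libraries. Oocyte and egg markers were present: 10 of 11 had at least 10 counts in every input, and their sum was 4361 to 7194 CPM in RIP against 2515 to 3320 in input. Markers of red blood cells (3 of 6 matched) had 0 counts in all 5 libraries, and those of follicle cells (6 of 8 matched) summed to 1.40 to 1.58 CPM in RIP and 1.42 to 4.88 in input. Skeletal muscle markers (2 of 6 matched) summed to 0 to 2.42 CPM in RIP and 0.414 to 1.86 in input. Zygotic transcripts of later embryos (8 of 9 matched) summed to 0.864 to 6.61 CPM in RIP and 2.15 to 2.99 in input.

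Values for a gene are counts divided by the median-of-ratios size factor of its library within these 5 libraries, called normalized counts. Fold changes are RIP over input on the log2 scale, with their standard error (SE), and a gene is called higher or lower where the adjusted p of the Wald test of DESeq2 (Benjamini-Hochberg) was under 0.005. Normalized counts are not divided by gene length, so they compare libraries and not genes. Where several Ensembl genes share a symbol, the identifier is given with it. Many symbols of zebrafish genes appear in capitals in the name table.

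Of 15131 genes tested, 2601 were higher in eIF4E1c RIP (17.2%) and 2537 were lower (16.8%). Called genes had log2 fold changes of 0.80 or more in size, with a median of 2.21, and 5056 of the 5138 called genes changed at least 2-fold. The 2 RIP libraries lay both above or both below all 3 inputs for 5134 of the 5138, while over all tested genes both lay above every input for 29.5% and below for 34.0%, called or not. The quasi-likelihood test of edgeR called 1334 higher (9.09% of 14676) and 1011 lower (6.89%), and each of them was among the DESeq2 calls in the same direction. Leaving out input 1, 2 or 3 lowered the DESeq2 calls to 1718, 1632 and 1610 higher and to 1532, 1516 and 1472 lower. Leaving out RIP 1 or RIP 2 leaves 1 RIP library, and the test then takes its spread from the inputs alone, which were more alike. Calls in those 2 settings do not measure the spread between RIP libraries, and list counts given below without RIP 1 or RIP 2 carry this limit. Entries without a symbol were lower more often than higher, with 72 of 691 tested higher and 148 lower. Entries with clone-based names had 288 of 1721 higher and 223 lower.

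**Figure D1:**
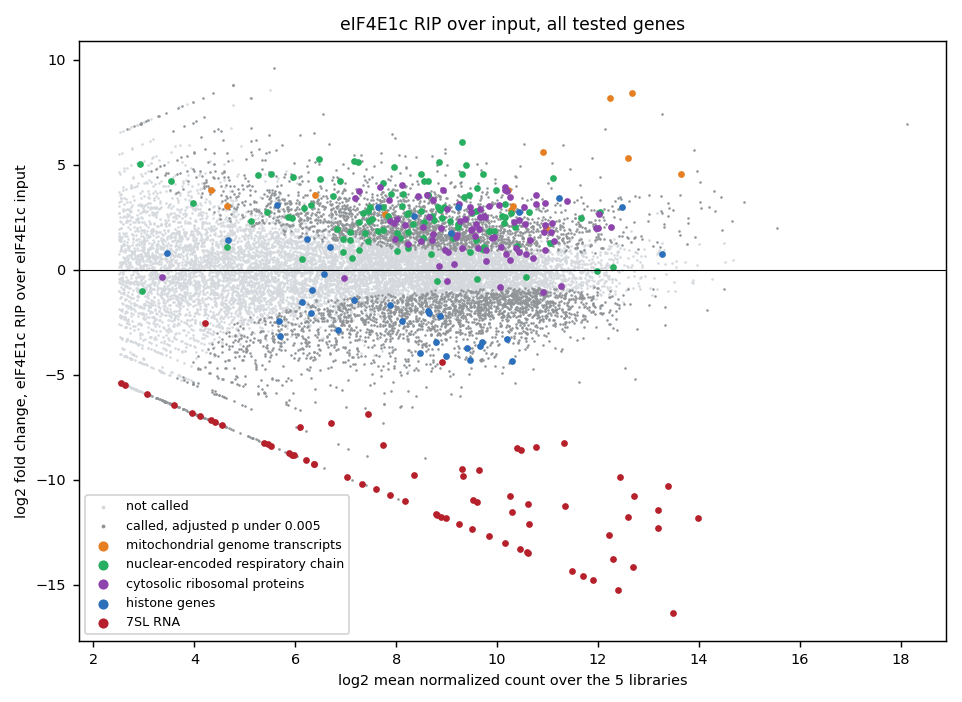
Log2 fold change of eIF4E1c RIP over eIF4E1c input (vertical axis) against the log2 mean normalized count over the 5 libraries (horizontal axis) for the 15131 tested genes; grey points are genes called (darker) or not called, and coloured points are members of 5 lists. 7SL RNA entries lie at the bottom, mitochondrial genome transcripts and nuclear-encoded respiratory chain genes mostly in the upper part, and histone genes on both sides of 0; points on straight lower edges are genes with 0 counts in both RIP libraries.

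The genes of the eIF4E family were examined first, because the transgene adds copies of the eif4e1c coding sequence and its transcript cannot be told apart here from that of the endogenous gene. eif4e1c had 2245 and 3313 normalized counts in eIF4E1c RIP, against 832, 833 and 729.7 in eIF4E1c input. Both RIP values lay above the inputs, the log2 fold change was 1.80 ± 0.31 and the DESeq2 adjusted p 7.46e-08. Its log2 ratio to the eIF4E1b comparison was -1.06 ± 0.40 and was not called (DESeq2 adjusted p 0.0416). EIF4E1B, whose protein is abundant in fish eggs and ovary, had 888 and 948 in RIP, against 123, 181 and 172 in input, and rose by a log2 fold change of 2.53 ± 0.33. eif4eb, a close relative of mammalian eIF4E, had 531 and 626 in RIP, against 160.2, 244 and 236 in input, and rose by 1.44 ± 0.36 log2 units, with an edgeR adjusted p of 0.00849 that missed the threshold. The entry named EIF4E had 376 and 164 in RIP, against 102, 84.1 and 54.1 in input and a log2 fold change of 1.75 ± 0.54 (DESeq2 adjusted p 0.00368, edgeR 0.0252). That call was lost in most of the alternatives run. The class II members EIF4E2 and eif4e2rs1, whose proteins bind the cap more weakly, were at a log2 fold change of 0.98 ± 0.38 and 0.85 ± 0.32 and were not called. In the ratio test they went in opposite directions, with -1.61 ± 0.43 for EIF4E2 (DESeq2 adjusted p 0.00251) and 1.35 ± 0.37 for eif4e2rs1 (DESeq2 adjusted p 0.00355). EIF4E3, of class III, was at a log2 fold change of 0.32 ± 0.30 and was not called. So 4 of the 7 eIF4E genes were called, all higher in eIF4E1c RIP, beside 17.2% of all tested genes called higher. Of these, eif4eb and EIF4E were called by DESeq2 only. In all 7 both RIP values lay above the 3 inputs, as for 29.5% of all tested genes.

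Transcripts were then grouped into 30 lists by symbol. Read against 17.2% higher and 16.8% lower over all genes, 5 lists had most of their tested members called higher by DESeq2: mitochondrial genome transcripts, nuclear-encoded respiratory chain genes, cytosolic ribosomal proteins, mitochondrial ribosomal proteins and zona pellucida genes. edgeR called most members higher only for respiratory chain genes (65 of 106) and cytosolic ribosomal proteins (57 of 86). It called 5 of 13 mitochondrial genome transcripts, 34 of 75 mitochondrial ribosomal proteins and 8 of 22 zona pellucida genes higher. DESeq2 called most members lower for 7SL RNA, small nucleolar RNA and histone genes, where edgeR called 49 of 70, 0 of 5 and 11 of 35 lower. With eIF4E1b 23.0% of 17123 tested genes were higher and 23.2% lower, and the ratio test called 5.24% of 14194 genes higher for eIF4E1c and 3.73% lower. The eIF4E1b comparison uses other libraries, RIP and input, than the eIF4E1c comparison.

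**Figure D2:**
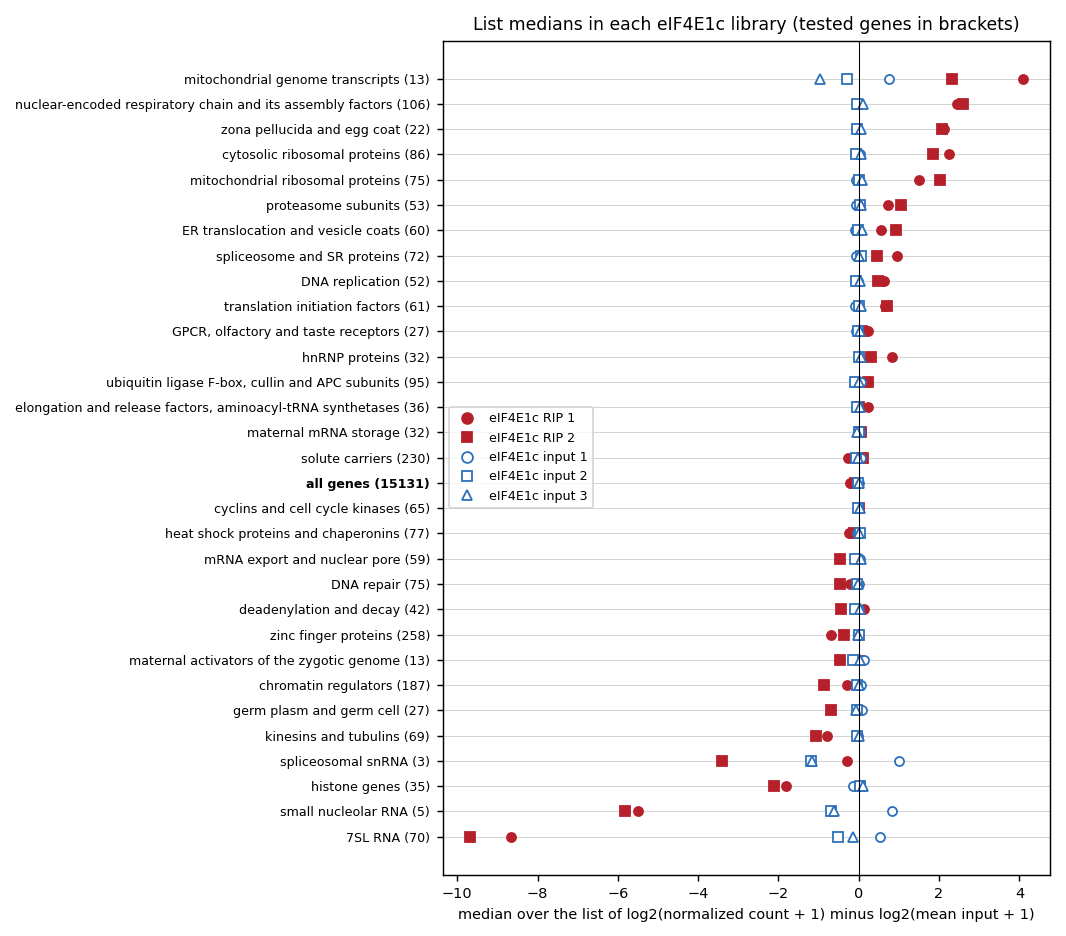
Median over the tested members of each list of log2(normalized count + 1) minus log2(mean input + 1), with 1 mark per eIF4E1c library (filled marks RIP 1 and 2, open marks input 1, 2 and 3), lists ordered by the median log2 fold change of the fit and all tested genes in bold. Mitochondrial genome transcripts reach 4.08 in RIP 1 and 2.31 in RIP 2, and 7SL RNA lies at -8.67 and -9.67. Most lists sit near 0 in the inputs and spread to both sides in RIP. Proteasome subunits lie at 0.73 and 1.05 in RIP 1 and 2, and kinesins and tubulins at -0.79 and -1.07.

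Among RNAs that carry no cap of the kind eIF4E binds, mitochondrial transcripts and 7SL RNA went in opposite directions. The 13 mRNAs of the mitochondrial genome encode subunits of the respiratory chain and are made and translated inside the organelle. In eIF4E1c RIP, 12 of the 13 were higher and none lower, with a median log2 fold change of 3.81. Together they made up 1.2% (1.19 to 1.2) and 0.251% (0.248 to 0.254) of all counts in eIF4E1c RIP 1 and 2, against 0.0685% (0.0667 to 0.0702), 0.0311% (0.0302 to 0.0321) and 0.0225% (0.0217 to 0.0234) in eIF4E1c input 1, 2 and 3 (Wilson 95% confidence intervals, which cover counting error only). Both RIP libraries lay above all inputs, and RIP 1 was several times above RIP 2. MT-CO3, a subunit of cytochrome c oxidase, had 28139 and 4510.5 normalized counts in eIF4E1c RIP, against 62.6, 57.9 and 24.4 in eIF4E1c input. Its log2 fold change of 8.40 ± 0.71 was the largest rise among the genes named here (DESeq2 adjusted p 2.57e-30). MT-CO2, of the same complex, had 21060.0 and 2903 in RIP, against 78.5, 29 and 18.3 in input, and rose by 8.17 ± 0.80 log2 units. MT-CO1, the catalytic subunit and the member with most counts, had 54012 and 6275 in RIP, against 1796, 1178 and 818 in input, and rose by 4.58 ± 0.74 log2 units. For MT-CO1 the edgeR adjusted p of 0.00579 missed the threshold, and edgeR called 5 of the 13. MT-ND4, of complex I, was the member not called, at 2.01 ± 0.75 (DESeq2 adjusted p 0.0191). The counts of higher calls were 6 without RIP 1, 10 without RIP 2, 11 without input 1, 8 without input 2 and 8 without input 3. Their median was -0.77 with eIF4E1b, where 2 were higher and 1 lower. The 2 higher ones were MT-CO3 (4.40 ± 0.93) and MT-CO2 (4.27 ± 0.98), and the lower one MT-ND4 (-3.14 ± 0.97). The ratios of MT-CO3 and MT-CO2 were not called (DESeq2 adjusted p 0.0258 and 0.0596). The ratio test gave a median of 4.04 over 11 members and called MT-ATP6 (5.50 ± 1.48) and mt-nd4l (3.95 ± 1.08) higher for eIF4E1c. The share of mitochondrial reads moved with the library: it was highest in RIP 1, the library with the fewest detected genes, and among inputs highest in input 1. The part of these library differences in the result was not tested beyond the values without each library.

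7SL RNA forms the core of the signal recognition particle, which brings ribosomes to the endoplasmic reticulum, and the assembly holds many near-identical copies, so counts may be shared among them in a way that is not stated. Most of these entries are named Metazoa_SRP. None of the 70 tested was higher in eIF4E1c RIP and 65 were lower. Summed over all entries, 7SL RNA made up 0.00215% (0.00183 to 0.00252) and 0.000382% (0.000282 to 0.000518) of all counts in eIF4E1c RIP 1 and 2, against 2.97% (2.96 to 2.98), 2.17% (2.16 to 2.18) and 2.48% (2.47 to 2.48) in eIF4E1c input 1, 2 and 3. It thus took over 2% of each input library and almost none of either RIP library. rn7sl1-2, the entry with most counts, had 15.3 and 3.29 normalized counts in eIF4E1c RIP, against 24563, 27973 and 28193 in eIF4E1c input, and its log2 fold change was -11.79 ± 0.55 (DESeq2 adjusted p 1.61e-99). In 39 of the 70 entries both RIP libraries had a count of 0, so their fitted fold change has no fixed size. With those entries set at the limit of 3 counts per library the list's median was -8.30 on the log2 scale, against -10.24 as fitted. ENSDARG00000113506, the deepest of them, had 0 and 0 in RIP, against 23174, 16104 and 18343 in input, at least 4690-fold lower. The 12 largest falls that met the rule for named genes were all 7SL entries, among them rn7sl1-3 (0 and 0 in RIP, against 8361, 9149.5 and 9355 in input) and rn7sl1-5 (1.91 and 0 in RIP, against 11497, 9925 and 11613 in input). ENSDARG00000112374, another entry of the group, had 5.73 and 5.76 in RIP, against 20360.0, 11187 and 15382 in input. With eIF4E1b 65 of 67 entries were lower, and the ratio test called none of 64 in either direction.

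The other small RNAs had few counts in either kind of library. Of 78 spliceosomal snRNA entries with a count, 3 could be tested and none was called. The tested entry with most counts, ENSDARG00000109985 (named U1, a symbol it shares with many entries), had 1.91 and 0.82 in RIP, against 43.5, 3.53 and 7.62 in input. Small nucleolar RNAs guide chemical modification or cleavage of ribosomal RNA. Of 34 with a count, 5 could be tested and 4 were lower, all of them entries named SNORA73, a family that acts in ribosomal RNA processing. The entry ENSDARG00000083400 had 15.3 and 0 in RIP, against 200.5, 86.2 and 90.7 in input, ENSDARG00000080823 had 0 and 0 in RIP, against 121, 39.6 and 44.2 in input and ENSDARG00000083108 had 0 and 0 in RIP, against 93.3, 33.9 and 40.4 in input. The 4 calls became 2 without input 1, and edgeR called none. With eIF4E1b all 6 tested small nucleolar RNAs were lower, and 5 of 10 tested snRNA entries were higher.

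3 entries among the largest rises, ENSDARG00000080337, ENSDARG00000115988 and ENSDARG00000115978, have no symbol in the name table. ENSDARG00000080337 was the most abundant entry of both RIP libraries, with 8.65% of the counts of RIP 1 and 2.96% of those of RIP 2. It had 1147300.0 and 261070.0 normalized counts in eIF4E1c RIP, against 9069, 4406 and 3649 in eIF4E1c input, and its log2 fold change was 6.95 ± 0.64 (DESeq2 adjusted p 1.25e-25). ENSDARG00000115988 had 36743 and 11836 in RIP, against 169, 79.1 and 182 in input and ENSDARG00000115978 had 5814 and 1377 in RIP, against 89.1, 33.9 and 48.8 in input. In all of these RIP 1 was over 3 times RIP 2, as it was for most mitochondrial transcripts.

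Histone genes went both ways. Histones package DNA, and an early embryo that divides without pause needs large amounts of them. The list had 7 of the 35 tested members higher in eIF4E1c RIP and 18 lower, with a median of -1.66. The 7 that rose were H2AZ2, h2az2b, h2af1al, H2BK1, h3f3a, h2ax1 and h3f3d. The H2A.Z and H3.3 forms among them are replacement variants, made outside DNA replication. H2AZ2 had 4729 and 5729 normalized counts in eIF4E1c RIP, against 502, 404 and 588 in eIF4E1c input, and rose by 3.39 ± 0.31 log2 units (DESeq2 adjusted p 1.1e-25). h2az2b had 1352 and 1160.5 in RIP, against 158, 149.8 and 166 in input, and rose by 2.99 ± 0.29 log2 units, and h3f3a, which encodes H3.3, had 2667 and 2977 in RIP, against 316, 552 and 395 in input. H2A, H2B, H3, H4 and linker histone genes were among those that fell, and H2A and H2B genes stood on both sides. h2bc1, an H2B gene, had 66.8 and 51 normalized counts in eIF4E1c RIP, against 1026, 1235 and 1133 in eIF4E1c input, and fell with a log2 fold change of -4.29 ± 0.34 (DESeq2 adjusted p 1.1e-34). h2ax, the H2A form that is phosphorylated at DNA breaks, had 227 and 146 in RIP, against 2059, 1627 and 1794 in input, and fell (log2 fold change -3.31 ± 0.34). Each of the 8 hist1h2a genes called was lower, from hist1h2a10 at -1.97 ± 0.41 to hist1h2a8 at -4.36 ± 0.52. hist1h2a8 had 139 and 60.9 in RIP, against 1115, 2292 and 2669 in input, so that no RIP value came near an input. h1m, the maternal linker histone and the histone gene with most counts, had 12821 and 13121 in RIP, against 5089.8, 8747 and 9165 in input, and was not called (log2 fold change 0.76 ± 0.36, DESeq2 adjusted p 0.0683). As a sum the list took 0.268% (0.265 to 0.272) and 0.468% (0.464 to 0.472) of all counts in eIF4E1c RIP 1 and 2, against 0.216% (0.213 to 0.22), 0.297% (0.294 to 0.3) and 0.312% (0.309 to 0.315) in eIF4E1c input 1, 2 and 3, so the sums overlapped between RIP and input while h1m and h2af1al had most of the RIP counts. Histone genes as counted here share sequence with near-identical copies, so values of single hist1h2a genes are uncertain.

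The fall was larger with eIF4E1c than with eIF4E1b for part of the list. With eIF4E1b 9 were higher and 9 lower of 35 tested, with a median of -0.06. The ratio test called 13 of the 35 lower for eIF4E1c and 3 higher, against 3.73% and 5.24% over all genes. h2ax was at a log2 fold change of -0.60 with eIF4E1b, and its log2 ratio was -2.74 ± 0.43 (DESeq2 adjusted p 3.78e-08). h2az2b was the other way, with 1.40 for eIF4E1b and a log2 ratio of 1.56 ± 0.32 (DESeq2 adjusted p 4.2e-05). h2bc1 fell with both, and its log2 ratio of -0.69 ± 0.39 was not called. The numbers called higher and lower stayed between 7 and 9 and between 14 and 18 with any single library left out, and edgeR called 6 and 11.

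**Figure D3:**
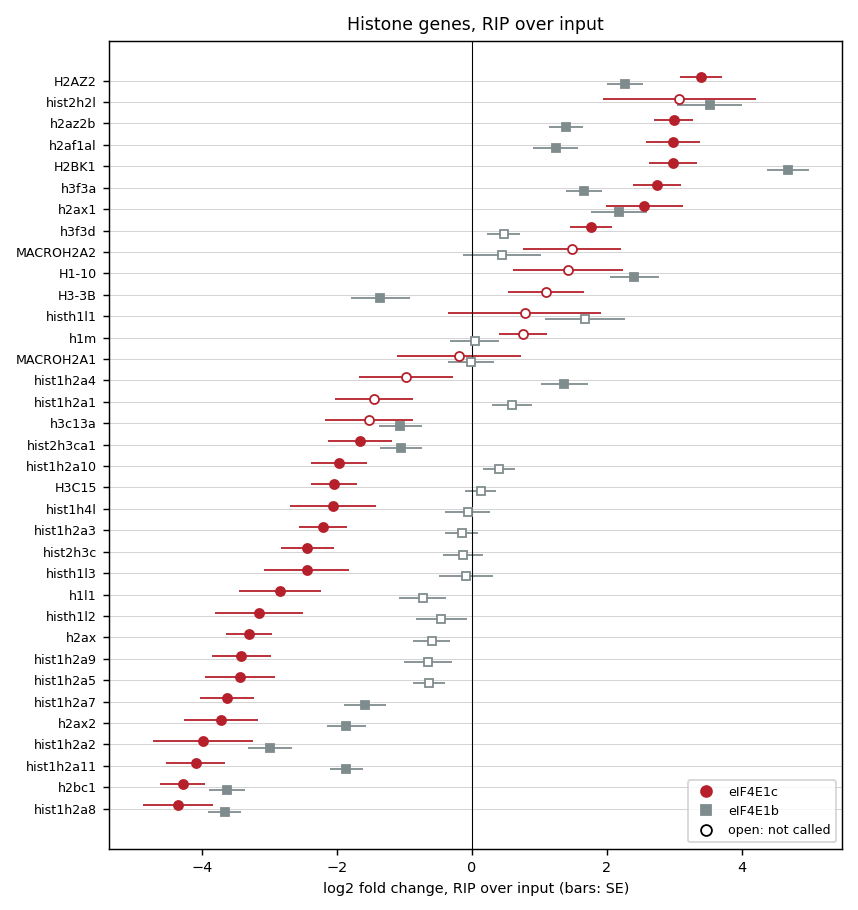
Log2 fold change of RIP over input with its SE for the 35 tested histone genes, with eIF4E1c as circles and eIF4E1b as squares; filled marks passed an adjusted p under 0.005 in DESeq2 and open marks did not. For eIF4E1c the genes spread from 3.39 for H2AZ2 at the right to -4.36 for hist1h2a8 at the left, while many of the same genes lie near 0 for eIF4E1b.

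Among mRNAs of the translation machinery, most of those for ribosomal proteins were higher in eIF4E1c RIP. Translation factors were higher less often than ribosomal proteins and more often than all genes. The share higher was 36.1% for initiation factors and 30.6% for elongation factors and synthetases, beside 17.2% over all genes. Cytosolic ribosomal proteins had 68 of the 86 tested members higher in eIF4E1c RIP and 0 lower, with a median of 2.03. Together they took 1.41% (1.4 to 1.42) and 1.55% (1.55 to 1.56) of all counts in eIF4E1c RIP 1 and 2, against 0.501% (0.496 to 0.506), 0.502% (0.498 to 0.505) and 0.546% (0.542 to 0.55) in eIF4E1c input 1, 2 and 3, with no overlap of RIP and input. RPL18, of the large subunit, had 4355 and 3415 normalized counts in eIF4E1c RIP, against 315, 308 and 355 in eIF4E1c input, and rose by 3.57 ± 0.29 log2 units (DESeq2 adjusted p 1.58e-33). RPL4, the member with most counts, had 10381 and 7624 in RIP, against 1897, 2263 and 2390.3 in input, and rose by 2.04 ± 0.30 log2 units. The lowest member was at -1.03 and was not called, as for 17 others. With eIF4E1b 68 were higher and 3 lower of 87 tested, and the ratio test called 2 higher and 2 lower for eIF4E1c of 86, with a ratio median of 0.00. The median ranged over 1.91 to 2.26 with any single library left out, and edgeR called 57 higher and 0 lower.

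Mitochondrial ribosomal proteins are encoded in the nucleus and imported to translate the organelle's own mRNAs. They had 49 of the 75 tested members higher in eIF4E1c RIP and 0 lower, with a median of 1.75. The median ranged over 1.53 to 2.07 with any single library left out, and edgeR called 34 higher and 0 lower. MRPL11 had 2591 and 2192 in RIP, against 203, 217 and 223 in input, and rose by 3.48 ± 0.28 log2 units, and mrpl34 had 1867 and 2711 in RIP, against 109, 141 and 140.3 in input, and rose by 4.13 ± 0.34 log2 units. MRPS34, the member with most counts, was not called, with 1510.3 and 3220.0 in RIP, against 1108, 1072 and 1083 in input (1.12 ± 0.40). In this list the ratio test went mostly to eIF4E1b: 9 of 75 were lower for eIF4E1c and 1 was higher. MRPL11 was at a log2 fold change of 5.24 with eIF4E1b, and its log2 ratio was -1.79 ± 0.33 (DESeq2 adjusted p 4.2e-06).

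Translation initiation factors load ribosomes on mRNA. The list had 22 of the 61 tested members higher in eIF4E1c RIP and 7 lower (median 0.61). Members called higher included eIF4E-binding proteins, with eif4ebp3 the largest rise of the list (3.67 ± 0.66 log2 units). Subunits and partners of eIF3, which holds the small ribosomal subunit, went both ways. EIF3J (ENSDARG00000012603) had 1359 and 1202 in RIP, against 126, 147 and 139.5 in input, and rose by 3.22 ± 0.29 log2 units, and EIF3K had 1963 and 2484 in RIP, against 367, 389 and 442 in input, and rose by 2.48 ± 0.29 log2 units. eif5b, a GTPase that joins the ribosomal subunits, had 79440.0 and 18002 in RIP, against 3498, 5019 and 4533 in input. It rose by 3.49 ± 0.57 log2 units, with RIP 1 over 4 times RIP 2. EIF3CL (log2 fold change -1.33 ± 0.31, edgeR adjusted p 0.00723) and EIF3B (ENSDARG00000059654; -1.43 ± 0.40, edgeR adjusted p 0.0188) fell. So did some genes whose proteins bind eIF4E, namely EIF4G3 (ENSDARG00000077215; -1.43 ± 0.33, edgeR adjusted p 0.00636) and eif4enif1 (-1.19 ± 0.37, edgeR adjusted p 0.0194). Others of that kind were not called: EIF4G1 (0.12 ± 0.46), the EIF4G3 gene ENSDARG00000074331 (-0.80 ± 0.35) and EIF4EBP2 (0.10 ± 0.47). Both genes named EIF4G2, relatives of eIF4G that do not bind eIF4E, fell. The EIF4G2 gene ENSDARG00000020377 had 1478 and 1916 in RIP, against 7369.5, 6076 and 6805 in input, and fell (log2 fold change -1.99 ± 0.28), and ENSDARG00000057167 had 1417 and 1884 in RIP, against 4074, 4546 and 4527 in input, and fell (log2 fold change -1.41 ± 0.28) (edgeR adjusted p 0.00676, past the threshold in DESeq2 only). Of these factors, 24 were higher and 10 lower of 61 tested with eIF4E1b (median log2 fold change 0.50), and the ratio test called 6 higher and 4 lower for eIF4E1c of 61. The initiation factor counts became 26 and 11 without RIP 2, 14 and 3 without input 1, 14 and 3 without input 2 and 16 and 2 without input 3.

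Elongation and release factors and aminoacyl-tRNA synthetases, which charge tRNAs, had 11 of the 36 tested members higher in eIF4E1c RIP and 6 lower (median 0.19). AIMP1 (ENSDARG00000060036), a scaffold of the synthetase complex, had 3578 and 2602 in RIP, against 306, 353 and 418 in input, and rose by 3.10 ± 0.32 log2 units. EEF1AKMT1, an enzyme that methylates an elongation factor and that the list took by its symbol, had 962 and 1275 in RIP, against 125, 138 and 164 in input. The synthetases for serine and alanine went the other way: SARS1 had 659 and 586 in RIP, against 1813, 1897 and 1877 in input, and fell (log2 fold change -1.58 ± 0.26), and AARS1 had 825 and 909 in RIP, against 2456, 2333 and 2481 in input, and fell (log2 fold change -1.48 ± 0.25). eef2b, a translocation factor with most counts in the list, was not called, with 20695 and 14091 in RIP, against 15741, 13042 and 15848 in input. With eIF4E1b AIMP1 was at a log2 fold change of 4.70, and the log2 ratio of -1.62 ± 0.45 was lower for eIF4E1c (DESeq2 adjusted p 0.00346). The elongation and synthetase counts became 11 and 10 without RIP 1, 7 and 5 without input 1, 7 and 3 without input 2 and 8 and 3 without input 3.

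Nuclear genes of the respiratory chain encode the complexes that pass electrons to oxygen and make ATP, and their assembly factors. The list had 82 of the 106 tested members higher in eIF4E1c RIP and 0 lower, with a median of 2.57. In 94 of the 106 both RIP libraries lay above all inputs, and in none below, beside 29.5% and 34.0% over all tested genes. As a share of counts the list took 0.784% (0.778 to 0.791) and 1.36% (1.35 to 1.37) of all counts in eIF4E1c RIP 1 and 2, against 0.337% (0.333 to 0.341), 0.313% (0.31 to 0.316) and 0.349% (0.345 to 0.352) in eIF4E1c input 1, 2 and 3. UQCRQ, a small subunit of complex III, had 1716 and 1385 normalized counts in eIF4E1c RIP, against 13.8, 26.9 and 27.4 in eIF4E1c input, and rose by 6.07 ± 0.41 log2 units (DESeq2 adjusted p 1.3e-47). ndufa11, of complex I, had 1617 and 1558 in RIP, against 39.2, 50.9 and 59.5 in input, and rose by 4.98 ± 0.33 log2 units. ATP5F1A, a core subunit of ATP synthase and the member with most counts, had 4689 and 5990.1 in RIP, against 5578, 4261 and 4760.0 in input. It was not called (log2 fold change 0.13 ± 0.29), and its RIP and input values overlapped. With eIF4E1b 92 were higher and 1 lower of 108 tested, with a median of 2.66. The ratio test called 2 higher and 2 lower for eIF4E1c, with a median of -0.07. Between 70 and 87 were higher with any single library left out, and edgeR called 65.

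In the ratio test, genes of mRNA processing and export were called higher for eIF4E1c more often than lower. Over all genes the shares were 5.24% higher and 3.73% lower, which lean the same way, and some other lists did so too. Spliceosome and SR proteins, which remove introns, had 28 of the 72 tested members higher in eIF4E1c RIP and 8 lower (median 0.77). LSM2 (ENSDARG00000103066), of the ring that holds U6 snRNA, had 1993 and 1911 normalized counts in eIF4E1c RIP, against 59.4, 80.6 and 78.5 in eIF4E1c input, and rose by 4.74 ± 0.31 log2 units (DESeq2 adjusted p 5.37e-49). SNRPB2, a protein of the U2 particle, had 4265 and 3322 in RIP, against 459, 482 and 448 in input, and rose by 3.03 ± 0.28 log2 units. Among the fallen members, U2AF1, which recognizes the end of the intron, had 34.4 and 57.6 in RIP, against 344, 533 and 519 in input (log2 fold change -3.31 ± 0.44). SNRNP200, the helicase of the U5 particle, had 319 and 432 in RIP, against 1572, 1610.4 and 1524 in input, and fell (log2 fold change -2.06 ± 0.29). srrm2, with most counts, had 22872 and 7402 in RIP, against 5518, 7213 and 6202 in input, and was not called (log2 fold change 1.26 ± 0.49). Of this list, 22 were higher and 24 lower of 72 tested with eIF4E1b (median log2 fold change 0.04), and the ratio test called 15 higher and 2 lower for eIF4E1c of 72. The spliceosome counts became 21 and 4 without input 1, 21 and 4 without input 2 and 22 and 5 without input 3. Calls over all genes fell as well, to 1718 and 1532 without input 1, 1632 and 1516 without input 2 and 1610 and 1472 without input 3.

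hnRNP proteins coat nuclear transcripts. They had 8 of the 32 tested members higher in eIF4E1c RIP and 5 lower (median 0.59), while 6 were higher and 13 lower of 34 tested with eIF4E1b (median log2 fold change -0.68), and the ratio test called 7 higher and 1 lower for eIF4E1c of 32. In eIF4E1c RIP the shares were 25% higher and 15.6% lower, beside 17.2% and 16.8% over all genes. The ratio test shares over all genes were 5.24% higher and 3.73% lower. hnrnpa0l had 7267 and 6495 normalized counts in eIF4E1c RIP, against 1923, 2293 and 2473 in eIF4E1c input, and rose by 1.63 ± 0.27 log2 units. With eIF4E1b it fell (-0.85 ± 0.21), and its log2 ratio was 2.45 ± 0.29 (DESeq2 adjusted p 1.02e-13). SYNCRIP, an RNA-binding protein of cytoplasmic transport granules, had 28389 and 23160.0 in RIP, against 8935, 7985 and 9514 in input. It rose by 1.55 ± 0.27 log2 units, and more with eIF4E1b, with a log2 ratio of -1.37 ± 0.26 (DESeq2 adjusted p 9.1e-06, edgeR adjusted p for eIF4E1c alone 0.00716). hnrnpa1a had 162 and 277 in RIP, against 736, 957 and 965 in input, and fell (log2 fold change -2.00 ± 0.38), and hnrnpul1l had 1296 and 417 in RIP, against 3249, 3024 and 3286 in input, and fell (log2 fold change -1.90 ± 0.49) (edgeR adjusted p 0.0156). The hnRNP counts became 4 and 6 without RIP 1, 15 and 6 without RIP 2, 3 and 1 without input 1, 3 and 2 without input 2 and 4 and 1 without input 3.

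Export factors and the nuclear pore, the gate between nucleus and cytoplasm, had 10 of the 59 tested members higher in eIF4E1c RIP and 12 lower (median -0.15). That is 16.9% and 20.3%, near the 17.2% and 16.8% over all genes. alyref, an adaptor for mRNA export, had 5854 and 6153 in RIP, against 2055, 1118 and 1265 in input, and rose by 2.02 ± 0.37 log2 units. kpna7, an importin alpha of oocytes and early embryos, had 2791 and 2839 in RIP, against 1018, 938 and 945 in input, and rose by 1.54 ± 0.25 log2 units. nup214, a large filament protein of the pore, had 45.8 and 44.4 normalized counts in eIF4E1c RIP, against 1276, 953 and 1231 in eIF4E1c input. It fell (log2 fold change -4.68 ± 0.35) (DESeq2 adjusted p 6.45e-37), and its 2 RIP values were nearly equal. IPO5, an importin, had 1673 and 2027 in RIP, against 6298, 5047 and 6568 in input, and fell (log2 fold change -1.69 ± 0.29). THOC2, of the THO export complex, had 9094 and 3343 in RIP, against 3846, 5115 and 5334 in input, and was not called, with RIP 1 above and RIP 2 below all inputs. Its log2 ratio was 1.86 ± 0.49 (DESeq2 adjusted p 0.00228). Here 8 were higher and 23 lower of 59 tested with eIF4E1b (median log2 fold change -0.54). The ratio test called 9 higher and 0 lower for eIF4E1c of 59, beside 5.24% and 3.73% over all genes. The export and pore counts became 5 and 8 without input 1, 5 and 9 without input 2 and 4 and 8 without input 3.

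Deadenylation and decay factors, which shorten poly(A) tails and degrade mRNA, went both ways, with 13 of the 42 tested members higher in eIF4E1c RIP and 10 lower (median -0.19). That is 31.0% and 23.8%, beside 17.2% and 16.8% over all genes. btg3, of the family that recruits the CCR4-NOT deadenylase, had 5819.6 and 5921 in RIP, against 1086, 1032 and 1102 in input, and rose by 2.45 ± 0.24 log2 units. EXOSC2, of the RNA exosome, had 1839 and 1584 in RIP, against 299, 278 and 319 in input, and rose by 2.52 ± 0.28 log2 units. CNOT1, the scaffold of CCR4-NOT, had 655 and 560.1 normalized counts in eIF4E1c RIP, against 3329, 2888 and 3025 in eIF4E1c input, and fell (log2 fold change -2.34 ± 0.27). CNOT4 (ENSDARG00000007045), its ubiquitin ligase, had 21 and 32.9 in RIP, against 533, 609 and 737 in input, and fell (log2 fold change -4.49 ± 0.42). CNOT8, a catalytic subunit of the same complex, went the other way and is described with the ratio test. parn, a deadenylase with most counts in the list, had 8233 and 6688 in RIP, against 9296, 9267 and 10856 in input, and was not called (log2 fold change -0.39 ± 0.27). The decay factor counts became 7 and 7 without input 1, 7 and 6 without input 2 and 7 and 7 without input 3.

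Proteins that store and repress maternal mRNA had 4 of the 32 tested members higher in eIF4E1c RIP and 3 lower (median 0.13). These shares are 12.5% and 9.38%, beside 17.2% and 16.8% over all genes, where most genes were not called either. ZAR1L, a protein of oocytes that binds stored mRNA, had 9210.5 and 14330.0 normalized counts in eIF4E1c RIP, against 869.9, 1220.4 and 1208 in eIF4E1c input, and rose by 3.42 ± 0.35 log2 units (DESeq2 adjusted p 4.18e-21). MSI2 (ENSDARG00000032614), a Musashi RNA-binding protein, had 1715 and 1712 in RIP, against 456, 461 and 388 in input, and rose by 1.98 ± 0.27 log2 units. It rose more with eIF4E1b, with a log2 ratio of -1.35 ± 0.28. patl2, of oocyte storage particles, had 771 and 1719.8 in RIP, against 3597, 3994 and 3416 in input, and fell (log2 fold change -1.56 ± 0.41) (edgeR adjusted p 0.0193). IGF2BP2, an mRNA-binding protein, had 126 and 75.7 in RIP, against 316, 304 and 281 in input, and fell (log2 fold change -1.59 ± 0.40) (edgeR adjusted p 0.014). pabpc1a, a cytoplasmic poly(A)-binding protein and the member with most counts, had 18891 and 9783 in RIP, against 7811, 6748 and 7547 in input, and was not called (log2 fold change 0.96 ± 0.37), while its log2 ratio of 1.90 ± 0.45 was higher for eIF4E1c (DESeq2 adjusted p 0.0006). The storage counts became 7 and 4 without RIP 1, 8 and 5 without RIP 2, 2 and 0 without input 1, 3 and 0 without input 2 and 2 and 0 without input 3, and edgeR called 2 higher and 0 lower, with 4 higher by DESeq2.

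Chromatin regulators were lower more often than all genes, and zinc finger proteins were not. Chromatin regulators, which modify or move nucleosomes, had 17 of the 187 tested members higher in eIF4E1c RIP and 45 lower (median -0.42). That is 9.09% and 24.1%, beside 17.2% and 16.8% over all genes in eIF4E1c RIP. The eIF4E1b comparison had 34 higher and 75 lower of 188 tested (median log2 fold change -0.61), beside 23.0% and 23.2% over all genes. The ratio test called 11 of 183 higher for eIF4E1c and 3 lower, beside 5.24% and 3.73% over all genes. SETD1B, a histone H3 methyltransferase, had 298 and 275 in RIP, against 1829.9, 1620.3 and 1868 in input, and fell (log2 fold change -2.63 ± 0.27). kdm4c, a histone demethylase, had 113 and 194 in RIP, against 1458, 1572 and 1790.2 in input, and fell (log2 fold change -3.37 ± 0.36). PRMT1, the main asymmetric arginine methyltransferase, had 3379.5 and 2448 normalized counts in eIF4E1c RIP, against 554, 644 and 644 in eIF4E1c input, and rose by 2.25 ± 0.30 log2 units. Its log2 ratio to the eIF4E1b comparison was 3.05 ± 0.45 (DESeq2 adjusted p 1.91e-09). ino80e, of the INO80 remodelling complex, had 661 and 504 in RIP, against 88, 92.6 and 111 in input, and rose by 2.58 ± 0.35 log2 units. BAZ1B, a bromodomain protein of remodelling complexes, had 84469 and 14547 in RIP, against 8354, 10993 and 10724 in input. It rose by 2.30 ± 0.63 log2 units, with RIP 1 over 5 times RIP 2, and edgeR did not call it (adjusted p 0.0301). The chromatin counts became 19 and 79 without RIP 1, 36 and 54 without RIP 2, 6 and 29 without input 1, 8 and 30 without input 2 and 8 and 27 without input 3.

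Zinc finger proteins, most of them DNA-binding, had 12 of the 258 tested members higher in eIF4E1c RIP and 45 lower (median -0.28), so the share lower was near the 16.8% over all genes and the share higher was below the 17.2%. ZNF652 had 70.6 and 83.1 in RIP, against 964, 962 and 926 in input, and fell (log2 fold change -3.62 ± 0.31). ZNF710 (ENSDARG00000014680) had 288 and 222 in RIP, against 2106, 2039 and 1890.1 in input, fell (log2 fold change -2.99 ± 0.29) and fell further than with eIF4E1b (log2 ratio -1.54 ± 0.31, DESeq2 adjusted p 2.74e-05). znf1156 had 475 and 622 in RIP, against 132, 117 and 135 in input, and rose by 2.1 ± 0.34 log2 units. znf593, which acts in the making of the large ribosomal subunit, had 869 and 1443 in RIP, against 195, 299 and 287 in input, and rose by 2.15 ± 0.39 log2 units. znf1035, with most counts, had 4997 and 2746 in RIP, against 8275, 6986 and 7115 in input, and was not called (log2 fold change -0.95 ± 0.36). The zinc finger counts became 4 and 30 without input 1, 4 and 28 without input 2 and 4 and 28 without input 3.

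DNA replication genes were higher more often than lower, with 17 of the 52 tested members higher in eIF4E1c RIP and 10 lower (median 0.62). These are 32.7% and 19.2%, beside 17.2% and 16.8% over all genes. For this list the eIF4E1b comparison had 19 higher and 12 lower of 52 tested (median log2 fold change 0.35). Of 52 members the ratio test called 4 higher and 2 lower for eIF4E1c. RPA3, the smallest subunit of the protein that coats single-stranded DNA, had 1274 and 1359 normalized counts in eIF4E1c RIP, against 98.7, 75.6 and 77 in eIF4E1c input, and rose by 3.98 ± 0.31 log2 units (DESeq2 adjusted p 3.71e-34). GINS1, of the replicative helicase, had 1293 and 1344 in RIP, against 179, 239 and 202 in input, and rose by 2.67 ± 0.30 log2 units. LIG1, the ligase that joins Okazaki fragments and the member with most counts, had 55771 and 15547 in RIP, against 3761, 4050.4 and 3722 in input, and rose by 3.21 ± 0.52 log2 units. POLA1, the catalytic subunit of the polymerase that starts each fragment, had 909 and 743 in RIP, against 2663, 3212 and 3519.5 in input, and fell (log2 fold change -1.93 ± 0.29). mcm3ap, taken into the list by its symbol and known as a scaffold of mRNA export, had 764 and 469 in RIP, against 2821, 2430.1 and 2434 in input, and fell (log2 fold change -2.06 ± 0.34), less than with eIF4E1b (log2 ratio 1.63 ± 0.39). The replication counts became 13 and 6 without input 2 and 14 and 5 without input 3.

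DNA repair genes leaned the other way in the DESeq2 calls, with 6 of the 75 tested members higher in eIF4E1c RIP and 17 lower (median -0.17). These are 8% and 22.7%, beside 17.2% and 16.8% over all genes. edgeR called 5 higher and 6 lower, beside 9.09% higher and 6.89% lower over all genes that it tested. The eIF4E1b comparison had 13 higher and 24 lower of 78 tested (median log2 fold change -0.18). The ratio test called 4 of 75 higher for eIF4E1c and 4 lower. RAD51C, a protein of homologous recombination, had 1514 and 2094 in RIP, against 267, 287 and 334 in input, a rise of 2.61 ± 0.32 log2 units and a log2 ratio of -1.35 ± 0.36 (DESeq2 adjusted p 0.00235). brca2, which acts in the same kind of repair, had 456 and 939 in RIP, against 4241, 3483 and 4040.2 in input, and fell (log2 fold change -2.49 ± 0.39). xrcc1, a scaffold of single-strand break repair, had 722 and 723 in RIP, against 2856, 2989 and 3022 in input, and fell (log2 fold change -2.03 ± 0.25). RAD50, with most counts, had 6509 and 2106 in RIP, against 1855, 2511 and 2184 in input, and was not called (log2 fold change 0.98 ± 0.49). The repair counts became 11 and 24 without RIP 2, 6 and 8 without input 1, 6 and 9 without input 2 and 6 and 8 without input 3.

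Cyclins and cell cycle kinases went both ways, with 18 of the 65 tested members higher in eIF4E1c RIP and 13 lower (median -0.04). That is 27.7% and 20%, beside 17.2% and 16.8% over all genes. CCNA1, the cyclin A of germ cells and early embryos, had 45107 and 30159 normalized counts in eIF4E1c RIP, against 1587, 1396 and 1411 in eIF4E1c input. It rose by 4.68 ± 0.31 log2 units, with the smallest DESeq2 adjusted p of the list (1.05e-49), and it was also the member with most counts. AURKAIP1, taken by its symbol and known as a protein of the mitochondrial ribosome, had 5552 and 3769 in RIP, against 781, 668 and 622 in input, and rose by 2.76 ± 0.32 log2 units. CDK17, a kinase of the PCTAIRE group, had 7.64 and 19.7 in RIP, against 1118, 733 and 822 in input. It fell (log2 fold change -5.90 ± 0.50), further than with eIF4E1b (log2 ratio -1.96 ± 0.50, DESeq2 adjusted p 0.00154). bub1bb, of the spindle checkpoint, had 299.8 and 342 in RIP, against 1075, 1299 and 1116 in input, and fell (log2 fold change -1.85 ± 0.29). The cell cycle counts became 13 and 5 without input 1, 12 and 6 without input 2 and 13 and 6 without input 3.

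Microtubule genes leaned to the input: kinesins, dyneins and tubulins had 5 of the 69 tested members higher in eIF4E1c RIP and 22 lower (median -0.76). These are 7.25% and 31.9%, beside 17.2% and 16.8% over all genes, and edgeR called 1 higher and 12 lower. DYNLRB1, a dynein light chain gene described with the largest rises, was not in this list. The eIF4E1b comparison had 7 higher and 33 lower of 75 tested (median log2 fold change -0.73). The ratio test called 4 of 67 higher for eIF4E1c and 2 lower. KIF7, a kinesin of Hedgehog signalling, had 603 and 508 in RIP, against 2668, 2829 and 3064 in input, and fell (log2 fold change -2.36 ± 0.27). DYNC1H1, the heavy chain of cytoplasmic dynein, had 49.6 and 45.2 in RIP, against 378, 352 and 448 in input, and fell (log2 fold change -3.06 ± 0.37). With eIF4E1b it was at a log2 fold change of -0.33, and its log2 ratio was -2.76 ± 0.52 (DESeq2 adjusted p 6.68e-06). DYNC2I1, an intermediate chain of the dynein of cilia, had 8178 and 2187 in RIP, against 149, 146 and 159 in input, and rose by 5.10 ± 0.54 log2 units. tuba4l, an alpha tubulin, had 3055 and 868 in RIP, against 390.4, 417 and 561 in input, and rose by 2.1 ± 0.54 log2 units (edgeR adjusted p 0.012). tubb4b, a beta tubulin with most counts, had 6133 and 5639.8 in RIP, against 7406, 6712 and 7788 in input, and was not called (log2 fold change -0.31 ± 0.25), while it fell with eIF4E1b (-1.65) and its log2 ratio was 1.31 ± 0.28 (DESeq2 adjusted p 9.39e-05). The microtubule counts became 1 and 17 without input 1, 1 and 15 without input 2 and 2 and 15 without input 3.

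In protein turnover, F-box, cullin and APC subunits, which choose proteins for degradation, had 23 of the 95 tested members higher in eIF4E1c RIP and 16 lower (median 0.29). That is 24.2% and 16.8%, beside 17.2% and 16.8% over all genes. fbxo5, whose product Emi1 inhibits the anaphase-promoting complex, had 17384 and 22520.0 normalized counts in eIF4E1c RIP, against 2954, 3070.3 and 3195 in eIF4E1c input, and rose by 2.70 ± 0.27 log2 units (DESeq2 adjusted p 8.72e-22). The rise was larger with eIF4E1b (5.38 ± 0.23), and the log2 ratio was -2.70 ± 0.33 (DESeq2 adjusted p 1.89e-13). FBXO48 had 1327 and 1003 in RIP, against 53, 44.5 and 57.2 in input, a rise of 4.50 ± 0.35 log2 units and a log2 ratio of -1.58 ± 0.36. DCAF8, a substrate receptor of cullin ligases, had 187 and 118 in RIP, against 1109, 1222 and 1276 in input, and fell (log2 fold change -2.99 ± 0.34), and FBXO28 had 107 and 74.8 in RIP, against 641, 471 and 684 in input, and fell (log2 fold change -2.74 ± 0.38). The ligase counts became 20 and 9 without input 1, 17 and 10 without input 2 and 17 and 10 without input 3.

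Proteasome subunits had 19 of the 53 tested members higher in eIF4E1c RIP and 2 lower (median 0.89). These are 35.8% and 3.77%, beside 17.2% and 16.8% over all genes. For this list the eIF4E1b comparison had 30 higher and 7 lower of 54 tested (median log2 fold change 1.43). Of 52 members the ratio test called 2 higher and 3 lower for eIF4E1c. PSMB3, of the catalytic core, had 1314 and 1017 in RIP, against 158, 168 and 185 in input, and rose by 2.77 ± 0.31 log2 units. PSMD6, of the regulatory lid and the member with most counts, had 3839.6 and 2926 in RIP, against 869, 805 and 775 in input, and rose by 2.05 ± 0.28 log2 units. The fallen members were the largest subunits of the regulatory base: PSMD2 (ENSDARG00000103190) had 302 and 149.7 in RIP, against 929, 608 and 878 in input, and fell (log2 fold change -1.85 ± 0.43) (edgeR adjusted p 0.00853), and PSMD1 had 792 and 628 in RIP, against 1356, 1539.8 and 1505 in input, and fell (log2 fold change -1.05 ± 0.28) (edgeR adjusted p 0.00999). The proteasome counts became 23 and 5 without RIP 1, 11 and 0 without input 1, 13 and 1 without input 2 and 12 and 0 without input 3.

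Heat shock proteins and chaperonins, which fold proteins, had 12 of the 77 tested members higher in eIF4E1c RIP and 11 lower (median -0.14). The shares, 15.6% and 14.3%, were near the 17.2% and 16.8% over all genes. DNAJC5 (ENSDARG00000042948), a co-chaperone of vesicles, had 792 and 704 in RIP, against 161, 127 and 123 in input, and rose by 2.45 ± 0.33 log2 units. DNAJC24, which acts in the modification of eEF2, had 374 and 354 in RIP, against 82.7, 84.8 and 81.6 in input, and rose by 2.13 ± 0.34 log2 units. The chaperones of the endoplasmic reticulum lumen were among the most abundant genes of the input. HSP90B1 had 8372 and 5385 in RIP, against 23640.0, 27355 and 26271 in input, and fell (log2 fold change -1.91 ± 0.31) (edgeR adjusted p 0.00749). HSPA5, known as BiP, had 16397 and 13400.0 in RIP, against 28767, 28672 and 28088 in input, and fell (log2 fold change -0.94 ± 0.25) (edgeR adjusted p 0.073). HYOU1, of the same compartment, had 15670.0 and 7178 in RIP, against 15653, 19407 and 17093 in input, and was not called. DNAJC25, a membrane co-chaperone, had 93.6 and 129 in RIP, against 657, 825 and 961 in input, and fell (log2 fold change -2.86 ± 0.36). HSP90AB1, the cytosolic form with most counts, had 42751 and 19717 in RIP, against 19101, 23787 and 25669 in input, and was not called (log2 fold change 0.45 ± 0.41). HSPA8 (ENSDARG00000068992), the constitutive cytosolic chaperone, had 14215 and 17981 in RIP, against 22996, 20187 and 23015 in input, and was not called with eIF4E1c, while it fell with eIF4E1b (-2.20) and its log2 ratio was 1.72 ± 0.34 (DESeq2 adjusted p 2.57e-05). The chaperone counts became 9 and 4 without input 1, 8 and 4 without input 2 and 8 and 3 without input 3.

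Genes of secretion leaned to the RIP. Translocation into the endoplasmic reticulum and vesicle coats had 22 of the 60 tested members higher in eIF4E1c RIP and 8 lower (median 0.78). These are 36.7% and 13.3%, beside 17.2% and 16.8% over all genes. OSTC, of the complex that adds sugars to new proteins, had 454 and 537 in RIP, against 6.36, 17 and 18.3 in input, and rose by 5.13 ± 0.50 log2 units, more than with eIF4E1b (log2 ratio 2.21 ± 0.57, DESeq2 adjusted p 0.0017). TRAM1, of the translocation channel, had 5926 and 5915 in RIP, against 1311, 1174 and 1175 in input, and rose by 2.28 ± 0.25 log2 units. SEC31B, of the outer coat of export vesicles, had 246 and 262 in RIP, against 1215, 855 and 1126 in input, and fell (log2 fold change -2.06 ± 0.32). SEC24A, of the inner coat, had 197 and 499 in RIP, against 2055, 2246 and 3082 in input, and fell (log2 fold change -2.81 ± 0.46). SEC62, with most counts, had 8468 and 3957 in RIP, against 3226, 3704 and 3755 in input, and was not called (log2 fold change 0.80 ± 0.40). For this list 19 were higher and 18 lower of 60 tested with eIF4E1b (median log2 fold change 0.15), and the ratio test called 5 higher and 0 lower for eIF4E1c of 59. The secretion counts became 16 and 5 without input 2 and 16 and 5 without input 3.

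Solute carriers, which move small molecules across membranes, had 26 of the 230 tested members higher in eIF4E1c RIP and 23 lower, both below the shares over all genes. SLC25A3 (ENSDARG00000025566), the phosphate carrier of mitochondria, had 4844 and 4476 in RIP, against 984, 801 and 938 in input, and rose by 2.36 ± 0.27 log2 units. SLC25A44 (ENSDARG00000035905), also of mitochondria, had 1377 and 1848 in RIP, against 351, 353 and 452 in input, and rose by 2.07 ± 0.32 log2 units. SLC4A2 (ENSDARG00000052330), an anion exchanger of the cell surface, had 351 and 194 normalized counts in eIF4E1c RIP, against 4398, 3662 and 3672 in eIF4E1c input, and fell (log2 fold change -3.85 ± 0.36) (DESeq2 adjusted p 2.06e-24). slc12a7a, a cotransporter of potassium and chloride, had 155 and 239 in RIP, against 891, 817 and 782 in input, and fell (log2 fold change -2.06 ± 0.34). SLC25A25 (ENSDARG00000010572), with most counts, had 3334 and 3786 in RIP, against 4808, 5541 and 4996 in input, and was not called, and its log2 ratio was -1.01 ± 0.29 (DESeq2 adjusted p 0.00492). The carrier counts became 46 and 31 without RIP 2, 11 and 10 without input 1, 11 and 9 without input 2 and 10 and 11 without input 3. Among G protein-coupled, olfactory and taste receptors 27 of 111 with a count could be tested, of which 4 were higher and 3 lower. The shares of the tested receptors, 14.8% and 11.1%, were below the 17.2% and 16.8% over all genes. gpr160 had 82.1 and 149.7 in RIP, against 14.8, 24 and 19.8 in input, and rose by 2.57 ± 0.59 log2 units (edgeR adjusted p 0.0119), and GPR107 had 1529 and 1161 in RIP, against 623, 532 and 608 in input, and rose by 1.19 ± 0.30 log2 units with a log2 ratio of 1.37 ± 0.37. GPR108 had 794 and 558 in RIP, against 1695, 1745 and 1890.1 in input, and fell (log2 fold change -1.40 ± 0.30), and GPR155 (ENSDARG00000090804) had 151 and 154 in RIP, against 441, 362 and 392 in input, and fell (log2 fold change -1.39 ± 0.32) (edgeR adjusted p 0.0101). The receptor counts became 6 and 5 without RIP 1, 0 and 2 without input 1, 1 and 0 without input 2 and 0 and 0 without input 3.

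Transcripts that mark the egg and the germ line did not move as 1 group. Zona pellucida proteins form the coat of the egg, and their mRNA is made during oogenesis. The list had 12 of the 22 tested members higher in eIF4E1c RIP and 0 lower, with a median of 2.25. The median ranged over 1.99 to 2.33 with any single library left out, and edgeR called 8 higher and 0 lower. zp3f.1 had 3842 and 3301 normalized counts in eIF4E1c RIP, against 337, 350.5 and 361 in eIF4E1c input, and rose by 3.35 ± 0.26 log2 units (DESeq2 adjusted p 2.23e-34). zp3 had 1537 and 1129 in RIP, against 112, 100.3 and 136 in input, and rose by 3.52 ± 0.34 log2 units. As a share of counts the list took 0.157% (0.154 to 0.16) and 0.184% (0.181 to 0.187) of all counts in eIF4E1c RIP 1 and 2, against 0.0477% (0.0463 to 0.0492), 0.0611% (0.0597 to 0.0624) and 0.0602% (0.0588 to 0.0616) in eIF4E1c input 1, 2 and 3. With eIF4E1b 16 were higher and 0 lower of 22, and the ratio test called 0 higher and 1 lower for eIF4E1c.

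Germ plasm and germ cell genes, which set apart the future germ line, had 7 of the 27 tested members higher in eIF4E1c RIP and 6 lower (median -0.46). That is 25.9% and 22.2%, beside 17.2% and 16.8% over all genes. gra had 691 and 1058 in RIP, against 74.3, 102 and 78.5 in input, and rose by 3.36 ± 0.38 log2 units. RBPMS2 (ENSDARG00000079578), an RNA-binding protein that partners with Bucky ball in zebrafish, had 6348 and 8824 in RIP, against 1404, 1427 and 1578 in input, and rose by 2.37 ± 0.29 log2 units, less than with eIF4E1b (log2 ratio -1.48 ± 0.35, DESeq2 adjusted p 0.000451). The Tudor domain genes TDRD9 and TDRD6, of the small RNA pathway of germ cells, fell. TDRD9 had 111 and 117 in RIP, against 1077, 798 and 818 in input and a log2 fold change of -2.98 ± 0.33, and TDRD6 had 208 and 378 in RIP, against 2552, 2336 and 2228 in input and one of -3.01 ± 0.36. buc, which organizes germ plasm and had most counts, had 14150.0 and 13991 in RIP, against 9130.5, 11551 and 10937 in input, and was not called (log2 fold change 0.42 ± 0.26). The germ plasm counts became 7 and 10 without RIP 1, 4 and 3 without input 2 and 4 and 3 without input 3. Of the 13 maternal activators of the zygotic genome none was higher and 1 was lower. That gene was foxr1, with 3.82 and 9.05 in RIP, against 45.6, 43.8 and 52.6 in input (-2.78 ± 0.78, edgeR adjusted p 0.0265). Without RIP 1 the activators gave 1 higher and 3 lower, without RIP 2 they gave 2 and 3, and without any input they gave 0 and 0.

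**Figure D4:**
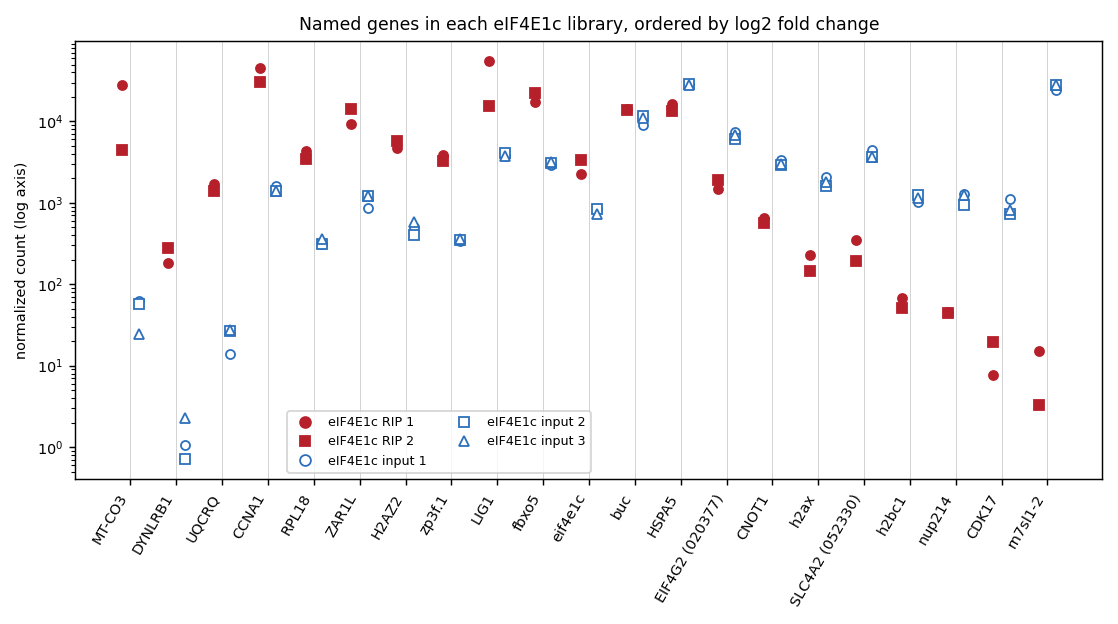
Normalized counts (log axis) of 21 named genes in each eIF4E1c library, RIP as filled and input as open marks, with genes ordered from the largest rise to the largest fall. For MT-CO3 and LIG1 RIP 1 lies several times above RIP 2, while for RPL18, H2AZ2, zp3f.1, CNOT1 and nup214 the 2 RIP values lie close together and away from the 3 inputs.

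The largest rises among genes with at least 200 normalized counts in the higher group, called by both tests, came from a set of 1289 genes, and the largest falls from 951. Beside the mitochondrial transcripts, UQCRQ and the entries without a symbol, the 12 largest rises held DYNLRB1, a light chain of dynein, with 183 and 280.5 in RIP, against 1.06, 0.71 and 2.29 in input and a log2 fold change of 7.42 ± 0.84. With eIF4E1b DYNLRB1 rose by 3.03 ± 0.57 log2 units, and its log2 ratio was 4.35 ± 1.00 (DESeq2 adjusted p 0.000311). tnks1bp1, a partner of tankyrase, had 20114 and 2074 in RIP, against 119, 112 and 93 in input, and rose by 6.68 ± 0.73 log2 units, with RIP 1 almost 10 times RIP 2. QDPR (ENSDARG00000037378), which regenerates the cofactor tetrahydrobiopterin, had 899 and 329 in RIP, against 7.43, 8.48 and 7.62 in input, and rose by 6.28 ± 0.59 log2 units. SRD5A2 (ENSDARG00000043587), a steroid reductase, had 197 and 297 in RIP, against 0, 3.53 and 7.62 in input, and rose by 5.98 ± 0.77 log2 units. The remaining members were rsf1b.1 (ENSDARG00000093503), with 344 and 63.3 in RIP, against 2.12, 0.71 and 3.81 in input, and si:ch211-127n13.3, with 758 and 431 in RIP, against 2.12, 11.3 and 6.1 in input.

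The 10 genes with the highest mean in eIF4E1c RIP were ENSDARG00000080337 and those for the histone chaperone NASP, the nucleolar proteins NOP58, PINX1 and rrp1, BAZ1B, eif5b, pho, SERBP1, which binds mRNA and idle ribosomes, and psip1b, a chromatin reader. NASP had 109360.0 and 64195 normalized counts in eIF4E1c RIP, against 14956, 27073 and 23634 in eIF4E1c input. It rose by 1.99 ± 0.40 log2 units (DESeq2 adjusted p 4.95e-06, edgeR 0.0148), and it was also among the 10 highest in input. NOP58, a core protein of box C/D small nucleolar particles, had 105150.0 and 26650.0 in RIP, against 6119, 7846 and 6934 in input, and rose by 3.24 ± 0.54 log2 units (edgeR adjusted p 0.00543). PINX1 had 71956 and 18086 in RIP, against 2460.0, 4019 and 3529 in input, and rose by 3.75 ± 0.56 log2 units, and psip1b had 59045 and 17032 in RIP, against 1287, 2688 and 2415 in input, and rose by 4.16 ± 0.56 log2 units. SERBP1 had 61880.0 and 16886 in RIP, against 5474, 4598 and 4746 in input (3.00 ± 0.52, edgeR adjusted p 0.00517), rrp1 had 70969 and 12569 in RIP, against 4507, 7121 and 6504 in input (2.79 ± 0.63, edgeR adjusted p 0.0155) and pho had 65237 and 14320.0 in RIP, against 9678, 13001 and 9557 in input (1.89 ± 0.58, edgeR adjusted p 0.0406). In each of these genes RIP 1 exceeded RIP 2, least for NASP and most for BAZ1B. The 10 highest in input were HSPA5, HSP90B1, HSP90AB1, HSPA8, HYOU1, NASP, the nucleolar protein gene ncl and the 7SL entries rn7sl1-2, ENSDARG00000113506 and ENSDARG00000112225. ncl had 41772 and 12512 in RIP, against 20144, 22913 and 19544 in input, and was not called, with RIP 1 above and RIP 2 below all inputs. ENSDARG00000112225 had 28.6 and 0 in RIP, against 17018, 17202 and 18969 in input.

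Most genes called with eIF4E1c were also called with eIF4E1b. Of the 5138 eIF4E1c calls 3966 were called in the same direction with eIF4E1b, 77.2% of the eIF4E1c calls and 50.1% of the eIF4E1b calls, and 44 in the opposite direction. Across the 14907 genes tested in both, the Pearson r of the log2 fold changes was 0.77, as a description, since both share the difference in kits. The ratio test called 744 genes higher and 529 lower for eIF4E1c, and 246 of the 744 and 194 of the 529 were also called in the same direction in eIF4E1c RIP against input. edgeR called 186 and 68. Without RIP 2 the ratio test gave 1514 and 1286, without input 1 it gave 491 and 350, without input 2 it gave 491 and 319, and without input 3 the lower calls became 318. Of the 44 genes with opposite calls, 38 were higher with eIF4E1c and lower with eIF4E1b, and 6 the reverse.

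The genes higher for eIF4E1c with the smallest adjusted p in the ratio test, and also higher in eIF4E1c RIP, included 4 that were lower with eIF4E1b. oclna, an occludin of tight junctions, had 1833 and 1222 normalized counts in eIF4E1c RIP, against 586, 606 and 724 in eIF4E1c input (1.26 ± 0.33, edgeR adjusted p 0.00622). With eIF4E1b it fell (-1.98 ± 0.23), and the log2 ratio was 3.20 ± 0.34 (DESeq2 adjusted p 1e-16). CNOT8, a deadenylase subunit, had 1119 and 899 in RIP, against 408, 369.6 and 522 in input, and rose by 1.22 ± 0.33 log2 units (edgeR adjusted p 0.00737), with a log2 ratio of 2.94 ± 0.33. SRSF1 (ENSDARG00000057691), a splicing factor, had 1753 and 1929 in RIP, against 823, 1015 and 1093 in input, and rose by 0.91 ± 0.29 log2 units (edgeR adjusted p 0.0138), with a log2 ratio of 2.85 ± 0.34. hnrnpa0l was the fourth. PPT2 (ENSDARG00000093176), a lysosomal thioesterase, had 2931 and 2694 in RIP, against 225, 478 and 414 in input, a rise of 2.92 ± 0.40 log2 units and a log2 ratio of 3.48 ± 0.42. si:dkey-192l18.10 had 1203 and 1075 in RIP, against 134, 136 and 157 in input, a rise of 3.00 ± 0.30 log2 units and a log2 ratio of 2.60 ± 0.32. Neither was called with eIF4E1b.

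In the other direction, ENSDARG00000109926, which has no symbol, had 17.2 and 12.3 in RIP, against 371, 314 and 426 in input, and fell (log2 fold change -4.70 ± 0.48). With eIF4E1b it was at a log2 fold change of 0.26 ± 0.30, and the log2 ratio was -4.99 ± 0.54 (DESeq2 adjusted p 1e-16). ENSDARG00000115875, also without a symbol, had 36.3 and 34.5 in RIP, against 705, 640.2 and 714 in input and a log2 ratio of -3.63 ± 0.48. SNX1 (ENSDARG00000103529), a sorting nexin of endosomes, had 223 and 161 in RIP, against 557, 688 and 717 in input, and fell (log2 fold change -1.78 ± 0.34), while it rose with eIF4E1b (0.73 ± 0.23), and its log2 ratio was -2.53 ± 0.36. LTV1, an assembly factor of the small ribosomal subunit, had 659 and 698 in RIP, against 1643, 1597 and 1477 in input, a log2 fold change of -1.21 ± 0.26 and a log2 ratio of -1.67 ± 0.25. aftphb, which acts in vesicle traffic, had 137 and 162 in RIP, against 772, 1071 and 1209 in input, a log2 fold change of -2.76 ± 0.35 and a log2 ratio of -2.32 ± 0.34. sytl4, a synaptotagmin-like protein of secretory granules, had 819 and 1045 in RIP, against 2294, 2334 and 2127 in input, a log2 fold change of -1.27 ± 0.28 (edgeR adjusted p 0.00653) and a log2 ratio of -1.80 ± 0.27.

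**Figure D5:**
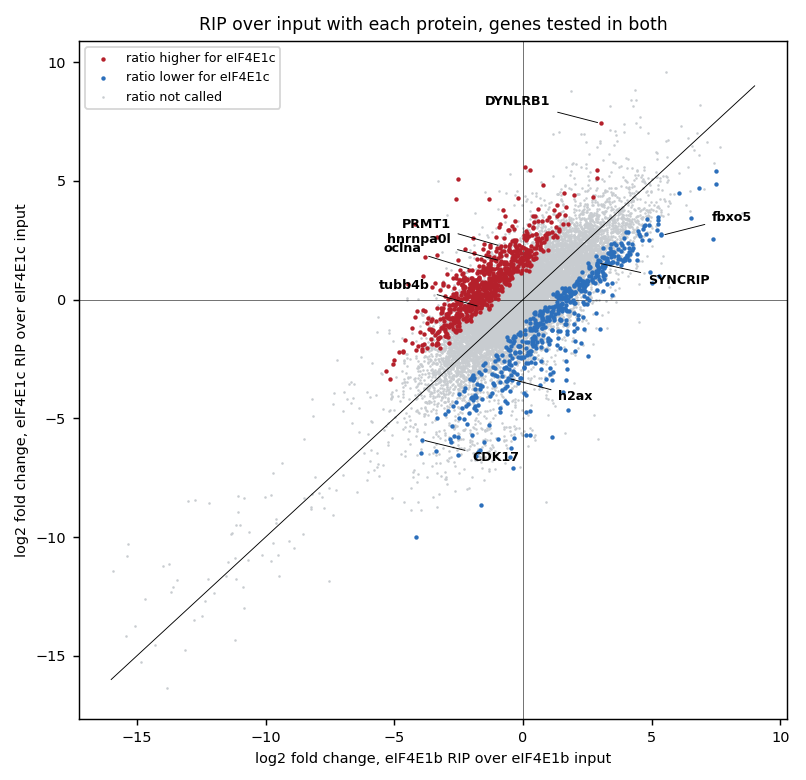
Log2 fold change of RIP over input with eIF4E1c (vertical axis) against that with eIF4E1b (horizontal axis) for the 14907 genes tested in both; red points had a ratio higher for eIF4E1c and blue points a ratio lower for eIF4E1c (DESeq2 adjusted p under 0.005), grey points neither, and the diagonal marks equal values. Most genes follow the diagonal; hnrnpa0l and oclna lie above 0 for eIF4E1c and below 0 for eIF4E1b, and fbxo5 lies above 0 for both and higher for eIF4E1b.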

How the data were processed

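RNA from anti-GFP immunoprecipitates and from matching lysates of 8-cell zebrafish embryos was sequenced by the authors and aligned to GRCz11. The submitters' processing notes name Trim Galore 0.5.0, Bowtie2 2.3.4.1, featureCounts, Subread 1.6.2, R 3.4.1 and DESeq2 1.18.1. The deposited values are raw read counts per Ensembl gene, and the use of strand, the treatment of reads with several matches and the annotation release are not given in the sources used here. Symbols were taken from a name table, which gave one for 29201 of the 32520 identifiers, and the 30 lists were built from symbols. The members and lists were chosen with earlier results of these data known.

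Groups follow the labels. RIP was compared with input over the 5 eIF4E1c libraries with the Wald test of DESeq2 1.42.0 in R 4.3.3, using median-of-ratios scaling, unshrunken fold changes, independent filtering and an adjusted p under 0.005. eIF4E1b (6 libraries) was fitted likewise, and the ratio test is the interaction term over all 11 libraries. The quasi-likelihood test of edgeR 4.0.16 was the main alternative, with other scalings, filters and thresholds, thinned counts, a replicate block and each library left out in turn. The procedure was run on simulated counts with known changes. Those gave RIP and input libraries the same spread, unlike the libraries here, so the run does not measure error rates in these data. Named were the eIF4E genes, the 12 largest rises and falls called by both tests with a mean of at least 200 normalized counts in the higher group and no overlap, the 10 most abundant genes of RIP and of input, the 2 genes per list and direction with the smallest adjusted p and the most abundant gene of each list, and the 6 genes per direction with the smallest adjusted p in the ratio test that were called in the same direction with eIF4E1c. A few genes that this rule names are not reported here. Other genes of the eIF4E1c comparison that are named were chosen after their values were seen. Intervals of shares are Wilson 95% intervals, and intervals and the limit of 3 counts cover counting error only.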

Additional observations from a re-analysis of the deposited data

Results flagged for a closer look

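For 37 of the named genes the RIP to input ratio differed between the proteins in the ratio test (DESeq2 adjusted p under 0.005). Values are log2 ratios, eIF4E1c over eIF4E1b. The ratio was higher for eIF4E1c in DYNLRB1 (4.35), PPT2 of ENSDARG00000093176 (3.48), oclna (3.20), PRMT1 (3.05), CNOT8 (2.94), SRSF1 of ENSDARG00000057691 (2.85), si:dkey-192l18.10 (2.60), hnrnpa0l (2.45) and OSTC (2.21). It was also higher in pabpc1a (1.90), THOC2 (1.86), HSPA8 of ENSDARG00000068992 (1.72), mcm3ap (1.63), h2az2b (1.56), GPR107 (1.37), eif4e2rs1 (1.35) and tubb4b (1.31).

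The ratio was lower for eIF4E1c in ENSDARG00000109926 (-4.99), ENSDARG00000115875 (-3.63), DYNC1H1 (-2.76), h2ax (-2.74), fbxo5 (-2.70), SNX1 of ENSDARG00000103529 (-2.53), aftphb (-2.32), CDK17 (-1.96) and sytl4 (-1.80). It was also lower in MRPL11 (-1.79), LTV1 (-1.67), AIMP1 of ENSDARG00000060036 (-1.62), EIF4E2 (-1.61), FBXO48 (-1.58), ZNF710 of ENSDARG00000014680 (-1.54), RBPMS2 of ENSDARG00000079578 (-1.48), SYNCRIP (-1.37), MSI2 of ENSDARG00000032614 (-1.35), RAD51C (-1.35) and SLC25A25 of ENSDARG00000010572 (-1.01). Among the 37, 12 genes were chosen by their adjusted p in this same test, so their ratios are a description.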

How the results depend on the processing

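The 2601 higher and 2537 lower calls became 1334 and 1011 with edgeR and 856 and 806 when tested against a log2 fold change of 1. They ranged over 1610 to 3285 and 1472 to 3389 with 1 library left out. With the replicate number as a block they became 1334 and 1510, and with the second RIP library numbered 3 in the replicate block 1421 and 1624. Only 2 numbers are shared and the second RIP library's number is uncertain, so the block was not used. The deviations of RIP 1 from its group correlated 0.20 with those of input 1 and -0.08 and -0.18 with those of inputs 2 and 3. The 744 higher and 529 lower ratio calls became 186 and 68 with edgeR and ranged over 491 to 1514 and 318 to 1286 with 1 library left out, and total count scaling gave 228 lower. Total count scaling shifted the median of all genes by -0.21 (log2), and 41.1% of its calls were higher, against 50.6% as reported. Of the genes named under the comparison, 29 of 169 lost their call with edgeR. These 169 include genes not called at all and genes chosen in part by an edgeR call. So the 29 do not measure how well calls hold. Over all genes edgeR kept 2345 of the 5138 calls. The direction turned only for genes not called in the report. With 1 library left out, the log2 fold change ranged over -0.167 to 0.914 for HSP90AB1, -0.692 to 1.01 for ncl, -0.0325 to 0.487 for eef2b, -0.466 to 0.942 for THOC2, -0.0072 to 1.58 for RAD50 and -0.0419 to 0.346 for ATP5F1A. With total count scaling ncl was at -0.00611, eef2b at -0.0487 and ATP5F1A at -0.0493. The causes were not tested. Of 479 list medians over the alternatives 15 changed sign, none of them among the 9 lists with a median of at least 1 in size. The looser threshold, the test against a log2 fold change of 1 and the omitted filter leave each gene's fold change unchanged. Medians from those settings therefore add little to this count. Low counts limit snRNA and small nucleolar RNA, and genes at 0 in RIP have only bounds.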

Other observations

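Further lists, chosen after the data were seen, are given by their counts beside the 17.2% higher and 16.8% lower over all genes. Nucleolar factors of ribosome biogenesis had 22 of 62 higher and 3 lower in eIF4E1c RIP, with a median log2 fold change of 0.80. With eIF4E1b 34 were higher and 6 lower, and the ratio test called 0 higher for eIF4E1c and 9 lower. Genes of mitochondrial protein import had 19 of 36 higher and 1 lower, with a median of 1.69. Nuclear RNA polymerases and Mediator had 30 of 62 higher and 6 lower, with a median of 1.24. Rab and Arf small GTPases, which direct vesicle traffic, had 34 of 105 higher and 9 lower, and the vacuolar ATPase, a proton pump, had 8 of 23 higher and 2 lower.

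In the next lists fewer members were higher than over all genes. Ion channels had 2 of 128 higher and 35 lower, with a median log2 fold change of -1.26. Collagens, laminins and cell adhesion receptors had 2 of 93 higher and 16 lower, a share lower near that over all genes, with a median of -1.10. The MAP kinase cascade had 3 of 45 higher and 13 lower, and centrosome and cilium genes 7 of 80 higher and 18 lower. DEAD and DEAH box helicases, which unwind RNA, had 6 of 51 higher and 9 lower.

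Outside 7SL RNA the largest falls, also chosen after their values were seen, included rmrp, the RNA of the RNase MRP enzyme. It had 3.82 and 0 normalized counts in eIF4E1c RIP, against 1059.8, 357 and 485 in eIF4E1c input. RNF123, a ubiquitin ligase, had 1.91 and 2.47 in RIP, against 314, 379 and 369 in input. Among mRNAs with 0 counts in both RIP libraries, the glutamate receptor gene GRIN2B (ENSDARG00000079348) was at least 26.5-fold lower, and the desmosome gene DSP (ENSDARG00000076673) at least 23.7-fold lower, than in input.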
